A study of Rattus norvegicus with 12 samples.

Results

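Whey of rat colostrum, taken 2 days postpartum, was compared with whey of mature milk, taken 9 days postpartum, by the miRNAs that each of them held. The miRNAs described here are those that the scanner software detected on at least 1 of the 3 day 2 arrays or the 3 day 9 arrays, and these were 156 of the 388 rat miRNAs on the array. The samples were total RNA of milk whey from 3 F344/N dams, each milked on both days, so that every dam gave 1 array of each group. In both groups the dams had been kept from their litters, injected with oxytocin and milked under light anesthesia, and the milk had been centrifuged to remove fat, cells, debris and casein before 70 ng of RNA was labelled with cyanine 3. The 6 arrays shared 1 slide and 1 scan. Changes are therefore relative to equal masses of RNA and not to equal volumes of milk. The cells that release whey RNA were not identified by the labels, and fewer cells of a type and less RNA per cell cannot be told apart.

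miRNAs are short RNAs cut from hairpin precursors, and they lower the output of mRNAs that pair with them. Bases 2 to 8 from the 5′ end, the seed, decide most of this pairing, so miRNAs with the same seed form a family. Milk miRNAs travel largely inside vesicles that protect them from degradation, and mammary epithelial cells are one known source of them.

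RefSeq (build GRCr8) gave a mature sequence for 128 of the 156 miRNAs. The sequences below belong to miRNAs on which the results turn, with the seed in capitals. The first set are miRNAs that passed as lower on day 9, and they are shown because no seed is repeated among them.
miR-212: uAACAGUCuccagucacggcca
miR-877: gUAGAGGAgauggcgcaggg
miR-341: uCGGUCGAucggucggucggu
miR-370: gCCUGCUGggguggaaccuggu
miR-874: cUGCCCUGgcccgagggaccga
miR-125a-3p: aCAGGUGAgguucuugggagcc
miR-296*: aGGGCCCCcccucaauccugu
miR-494: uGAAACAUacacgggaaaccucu
The pair that follows is the miR-19 family, which has 1 seed and fell as a pair.
miR-19a: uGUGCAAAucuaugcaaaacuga
miR-19b: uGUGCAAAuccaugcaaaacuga
The next set holds the members of the let-7 family, and then of the miR-29 family, that passed as higher on day 9. let-7b, let-7c and miR-29c, which did not pass, are not printed.
let-7a: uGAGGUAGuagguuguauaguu
let-7d: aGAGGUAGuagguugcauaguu
let-7e: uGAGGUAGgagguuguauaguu
let-7f: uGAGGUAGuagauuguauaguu
let-7i: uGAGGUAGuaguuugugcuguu
miR-98: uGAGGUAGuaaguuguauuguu
miR-29a: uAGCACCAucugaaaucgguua
miR-29b: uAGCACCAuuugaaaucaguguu
The last set rose from a very low signal on day 2.
miR-99b*: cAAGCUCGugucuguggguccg
miR-294: cUCAAAAUggaggcccuaucu
miR-291a-5p: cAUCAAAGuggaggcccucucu
miR-30c-2*: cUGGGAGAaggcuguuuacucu
miR-34a: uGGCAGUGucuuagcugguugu

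The arrays of day 9 were brighter as a whole. Total signal, the background-subtracted intensity summed over all miRNAs of an array, was 21620 to 25457 on the day 2 arrays and 70019.5 to 106279 on the day 9 arrays. The geometric mean ratio was 3.70 (exact permutation test without pairing by rat, two-sided, p = 0.1, the smallest p that 3 against 3 samples allow). The ratios were 4.14, 4.45 and 2.75 in rats 1, 2 and 3. The bright control spots of the slide moved the other way, with medians of 281 to 543 on day 2 and 196 to 217 on day 9, and their part in the ratio was not tested. The number of miRNAs detected on an array was 109, 120 and 125 on day 2 and 121, 136 and 132 on day 9. Because of this gap in brightness, signals were quantile normalized over the 12 arrays of the series and set to at least 1, and log2 values of them are called normalized log2 signals below. Signals before this step are called raw signals.

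By detection on at least 1 of 3 arrays, 116 miRNAs were found on both days, 12 only on day 2 and 28 only on day 9. The strict pattern of 3 arrays on 1 day and none on the other held for 6 miRNAs of day 2, which were miR-125b-3p, miR-877, miR-341, miR-874, miR-290 and miR-133a. The opposite pattern held for 11 miRNAs of day 9, among them miR-99b*, miR-352, miR-30c-2*, miR-192, miR-130b, miR-34a and miR-224. A further 98 miRNAs were detected on all 6 arrays.

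The signals were compared in limma over the 188 miRNAs detected anywhere in the series, with Benjamini-Hochberg adjustment over these 188. At an adjusted p under 0.05, 81 of the 156 miRNAs changed, of which 49 were higher and 32 lower on day 9, and 75 did not pass. Over all 188 miRNAs tested, 45.2% passed, 28.2% as higher and 17% as lower. The 3 day 9 arrays lay wholly above or wholly below the 3 day 2 arrays for 90 of the 156 miRNAs, against 51.1% of all miRNAs tested. Of the 81 that passed, 80 changed in the same direction in all 3 rats. The exception was miR-760-3p, a dim miRNA that passed as lower although rat 2 had 3.39 on day 2 and 3.43 on day 9. The software detected it on no day 2 array and on 1 day 9 array, so its fall is not one of a miRNA detected on day 2.

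The balance of rises and falls depended on the normalization. Without any normalization between arrays, 90 of the 156 miRNAs passed as higher and 12 as lower, and over all miRNAs tested 55.9% passed, 49.5% as higher and 6.38% as lower. All 12 of the latter were also lower after quantile normalization, and they were miR-125b-3p, miR-212, miR-877, miR-341, miR-370, miR-874, miR-134, miR-290, miR-125a-3p, miR-296*, miR-133a and miR-483. Of all tested miRNAs, 52 were higher in both fits. Only miR-20a passed as lower in one and as higher in the other. The median change over all tested miRNAs was 0.08 on the log2 scale after quantile normalization and 1.13 without it, and the change of miR-20a without it, 1.34, was above this median. Of the 32 falls, 6 had a change above 0 without normalization, those of miR-20a, miR-27a, miR-30d, miR-30e, miR-181c and miR-365, and none of the 49 rises had one below 0. Among the 75 that did not pass, the sign of the change differed between the 2 scales for 25.

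**Figure D1:**
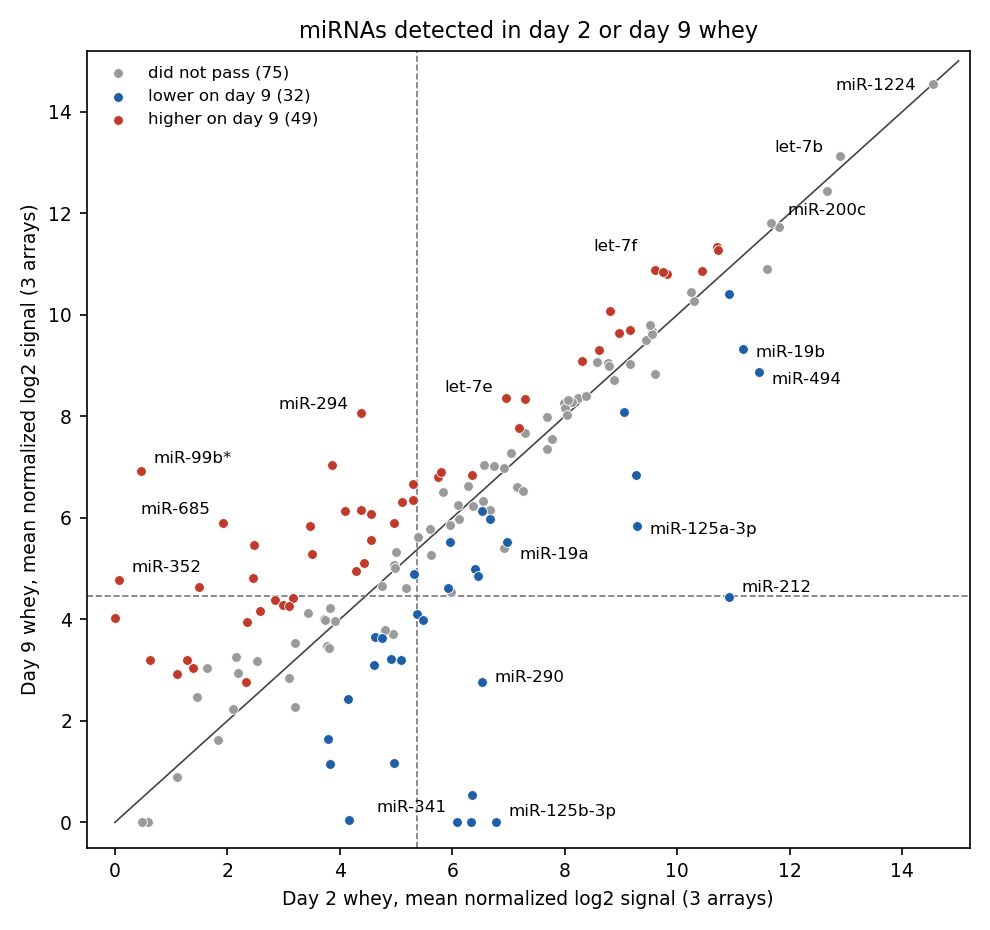
Mean normalized log2 signal of each of the 156 miRNAs on the 3 day 2 arrays (horizontal axis) and the 3 day 9 arrays (vertical axis), coloured by the limma call, with the line of equal signal. Dashed lines mark the mean background limits, 5.37 on day 2 and 4.46 on day 9, and the bright miRNAs such as miR-1224, let-7b and miR-200c lie near the line while miR-212, miR-125a-3p and miR-494 lie far below it.

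Not all changes could be sized. A background limit was set on each array as the lowest normalized signal of any miRNA for which a share of 0.5 or more of the spots stood well above background, and it averaged 5.37 on day 2 and 4.46 on day 9. Where the dimmer day was not detected on any array or had a mean below its limit, each dimmer value was raised to the limit of its array and the fold is given as "at least". Where this left a ratio under 1, or the brighter day was itself below its limit, no fold is given. Of the 81 miRNAs that passed, 30 had a measured fold, 22 a lower bound and 29 no fold. Among the 30, 7 were more than 2-fold higher and 8 more than 2-fold lower on day 9.

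The fall with the highest bound was that of miR-212, a miRNA that the transcription factor CREB induces in neurons and that shares a transcript with miR-132. Its raw signals were 433, 491 and 549 on day 2 and 17, 81.5 and 3.64 on day 9. It was among the bright miRNAs of all day 2 arrays, and the day 9 values were spread widely between rats but did not come near those of day 2. The normalized log2 signal went from 10.91 ± 0.07 to 4.45 ± 2.11 (mean ± SD, n = 3), which by the rule above is at least 51.9-fold lower in the mean (limma, adjusted p = 0.00035). The size of this fold is uncertain, since the software detected miR-212 on 2 of the 3 day 9 arrays and these 2 entered with their own values. The log2 fold change was -7.46 without the day 9 array of rat 2, -5.36 without that of rat 3 and -4.83 without normalization. miR-132 was detected on none of the 6 arrays.

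miR-125a-3p and miR-125b-3p, the 3′ arms of the hairpins that also make miR-125a-5p and miR-125b-5p, both fell. miR-125a-3p had normalized log2 signals of 9.45, 9.33 and 9.08 on day 2 and of 5.97, 5.83 and 5.74 on day 9. The days did not overlap and each was narrow. The log2 fold change was -3.44 with an SE of 0.11 (adjusted p = 6.1e-09). The raw signals of miR-125b-3p were 40.6, 41.6 and 37.5 on day 2, and on day 9 they were below 0 on every array. It was at least 4.96-fold lower on day 9 (adjusted p = 9.4e-06). The 5′ arms behaved otherwise, as miR-125a-5p had a log2 fold change of 0.17 (SE 0.23, adjusted p = 0.63) and miR-125b-5p one of -0.72 (SE 0.39, adjusted p = 0.17). miR-125b*, which the array names also pair with miR-125b-5p, was detected on 1 day 2 array alone. It did not pass (log2 fold change -0.59, SE 0.39, adjusted p = 0.26).

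A group of miRNAs encoded in the imprinted Dlk1-Dio3 region, which is active in embryo, placenta and brain, was lower on day 9. Of 39 on the array, 7 were tested and 5 of them fell, against 17% lower among all miRNAs tested. These 5 were the members of the region detected in whey on either day. Since miR-341, miR-134 and miR-409-3p were detected on day 2 alone, the day on which they were higher, the detection rule fixes part of this count. miR-494 had normalized log2 signals of 11.52, 11.52 and 11.33 on day 2 and of 8.95, 9.25 and 8.43 on day 9. It was 1 of the bright miRNAs of colostrum whey and fell by 2.58 on the log2 scale (SE 0.54, adjusted p = 0.0028). miR-341, which is known from rodents, had raw signals of 25.6, 23.2 and 26.7 on day 2 and of -2.03, -2.9 and -0.117 on day 9, and was at least 3.08-fold lower (adjusted p = 6.1e-09). miR-370 was at least 3.72-fold lower (adjusted p = 3.1e-06), from raw signals of 24.2 to 39.6 to raw signals of -4.32 to 1.76. miR-134 and miR-409-3p also passed as lower (adjusted p = 0.00019 and 0.00016), but both days were below the background limits and neither has a fold. In raw signals miR-494 was 820, 879 and 694 on day 2 and 366, 688 and 260 on day 9, and without normalization between arrays its adjusted p was 0.2. On that scale 3 of the 7 tested members of the region passed as lower, against 6.38% of all miRNAs tested.

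Among the other falls, miR-877, a mirtron that the splicing machinery and not the enzyme Drosha cuts from its host transcript, had raw signals of 36.6, 25.8 and 26 on day 2 and was below 0 on every day 9 array. It was at least 3.67-fold lower (adjusted p = 2.8e-09). miR-296* had normalized log2 signals of 9.52, 9.08 and 9.19 on day 2 and of 7.06, 6.78 and 6.71 on day 9, without overlap. Its log2 fold change was -2.41 (SE 0.15, adjusted p = 1e-06). miR-290 was detected on all day 2 arrays and on none of day 9 and was at least 4.22-fold lower (adjusted p = 4.6e-07). miR-874 and the muscle miRNA miR-133a had the same detection pattern and passed as lower, with normalized log2 signals of 4.17 ± 0.28 and 3.80 ± 0.21 on day 2, both under the limit. Smaller falls were those of miR-188 (log2 fold change -1.42, SE 0.09), miR-483 (-1.60, SE 0.31) and miR-148b-3p (-1.31, SE 0.19), with adjusted p-values of 9.7e-07, 0.002 and 0.0003. The raw signals of miR-148b-3p, 17.3 to 27 on day 2 and 17.1 to 28.9 on day 9, overlapped.

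**Figure D2:**
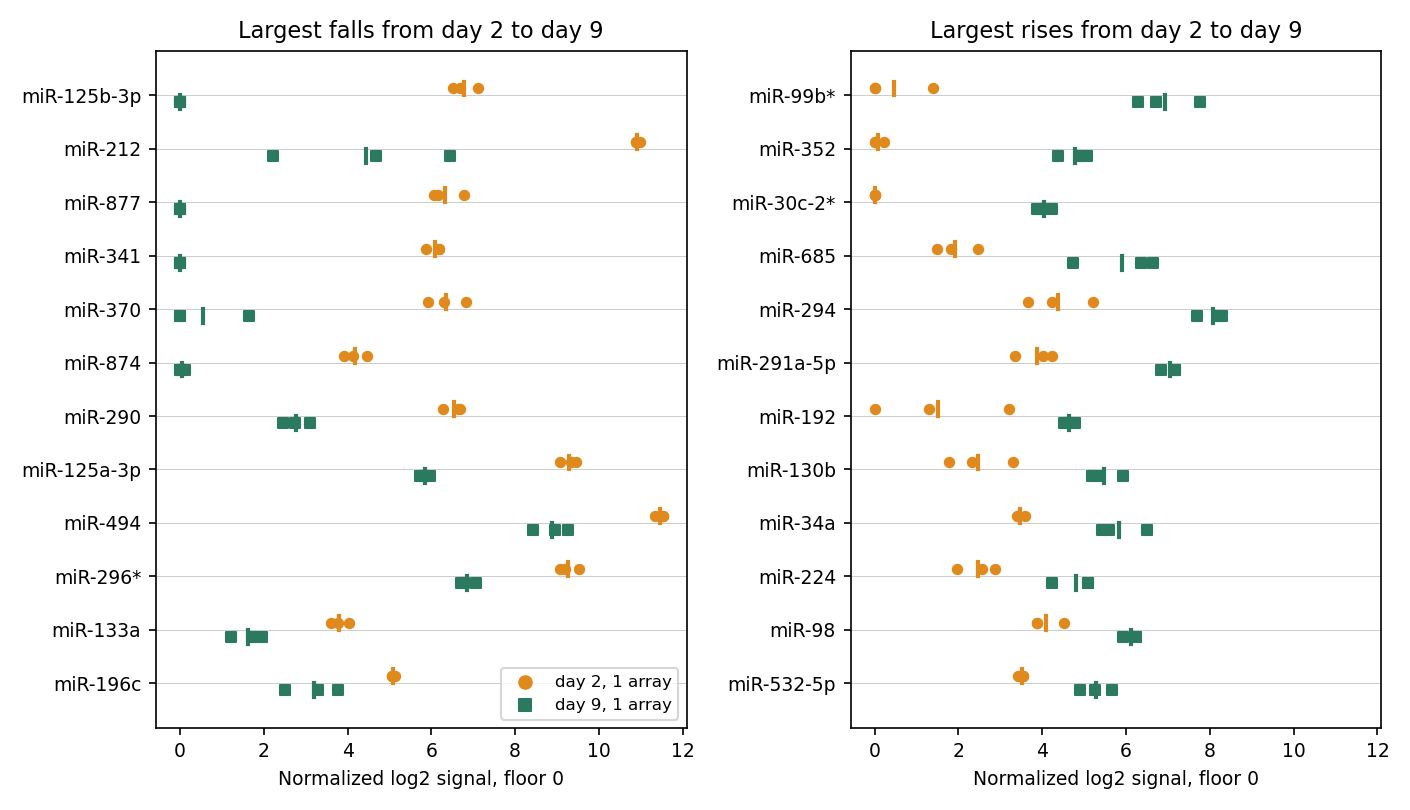
Normalized log2 signals of the 12 miRNAs with the largest falls (left) and the 12 with the largest rises (right) among those that passed, were detected on all arrays of the brighter day and changed in 1 direction in every rat, with 1 point per array and a bar at the mean of 3. No day 9 array reached a day 2 array in any of the 24, and values at 0 are at the floor.

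The rise with the largest fitted change was that of miR-99b*, the passenger strand of miR-99b, whose day 2 signals were at or near the floor. miR-99b itself was detected on no array of either day. None of the 4 probes of miR-99b* had a signal above 1 on all 6 arrays. The raw signals of miR-99b* were -1.76, 0.428 and 1.19 on day 2 and 58.6, 68.6 and 147 on day 9. It went from not detected on any array to detected on all, and was at least 2.93-fold higher on day 9 (adjusted p = 4.9e-06), a lower bound than those of miR-294 and miR-291a-5p below. miR-352 and miR-30c-2* showed the same detection pattern, from normalized log2 signals of 0.07 ± 0.13 and 0.00 ± 0.00 to 4.77 ± 0.36 and 4.03 ± 0.18 (adjusted p = 7.7e-09 and 4.5e-07). No fold is given for them because these day 9 signals were below the limit of the day 2 arrays. miR-685 had raw signals of 1.33, 3.27 and 1.19 on day 2 and of 44.1, 29.8 and 71.6 on day 9, and was at least 1.45-fold higher (adjusted p = 0.00095).

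A pair of miRNAs of the miR-290 cluster, which marks embryonic stem cells in mouse, rose while miR-290 itself fell. Of 8 cluster members on the array, 4 were tested, and the rest were detected on no array of the series. Of these 4, 2 passed as higher and 1 as lower, against 28.2% and 17% of all miRNAs tested. miR-294 had raw signals of 5.64, 15.5 and 9.38 on day 2 and of 141, 370 and 201 on day 9. All day 9 arrays were far above those of day 2, and the fold was at least 6.46 (adjusted p = 9.9e-06). miR-291a-5p had raw signals of 4.77, 10.8 and 8.21 on day 2 and of 65.3, 129 and 113 on day 9, at least 3.20-fold higher (adjusted p = 1.2e-06). miR-292-5p, the fourth miRNA of this cluster detected in whey, had a log2 fold change of -1.24 (SE 0.47, adjusted p = 0.059), and of -1.88 without the day 9 array of rat 2 (adjusted p = 0.00028). For each of miR-294 and miR-291a-5p, 1 of 4 probes had a signal above 1 on all 6 arrays, and it rose. Both of the 2 probes of miR-290 met this rule and fell.

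The let-7 family, whose members are abundant in differentiated cells and rise in development as stem cell factors fall, was higher on day 9. Of 8 members tested, 6 rose and none fell, against 28.2% higher and 17% lower among all miRNAs tested. The median log2 fold change was 0.97 against 0.08 over all miRNAs tested. Without normalization between arrays all 8 rose, against 49.5% of all miRNAs tested. let-7f had normalized log2 signals of 9.25, 9.73 and 9.82 on day 2 and of 10.87, 10.62 and 11.17 on day 9. The log2 fold change was 1.29 for let-7f (SE 0.20), 1.27 for let-7d (SE 0.20) and 1.41 for let-7e (SE 0.20), with adjusted p-values of 0.00047, 0.00047 and 0.00033. let-7a and let-7i rose less, by 0.64 (SE 0.15) and 0.68 (SE 0.13) on the same scale. miR-98 was at least 1.69-fold higher (adjusted p = 9.9e-06), from raw signals of 6.33, 9.58 and 11.4 to raw signals of 41.4, 48.7 and 50.9. The 2 that did not pass, let-7b and let-7c, were the brightest of the family. Below miR-1224 they held the next 2 ranks on every array of either day, so quantile normalization could only swap their places. Their raw signals were 1235 to 1794 and 1173 to 1773 on day 2 and 6020 to 8152 and 4590 to 6550 on day 9.

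The sequences of the let-7 family differ by 1 to 6 of their bases, and cross-hybridization between them was not tested. The same holds for miR-103 and miR-107, which differ at 1 of 23 bases. Their log2 fold changes were 0.12 (SE 0.13, adjusted p = 0.54) and 0.97 (SE 0.16, adjusted p = 0.00079).

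In the miR-29 family, known for lowering collagen mRNAs, 2 of 3 members rose, against 28.2% of all miRNAs tested. Without normalization between arrays all 3 rose, against 49.5% of all miRNAs tested. miR-29a had normalized log2 signals of 9.73, 9.82 and 9.67 on day 2 and of 10.79, 10.87 and 10.87 on day 9. It was higher in every rat by nearly the same amount, with a log2 fold change of 1.11 (SE 0.10, adjusted p = 1.4e-05). miR-29b had a log2 fold change of 1.06 (SE 0.18, adjusted p = 0.00088). miR-29c, which differs from miR-29a at 1 of 22 bases, had 0.30 (SE 0.15, adjusted p = 0.13), while its passenger strand miR-29c* was detected only on day 9 and passed as higher (adjusted p = 0.0004).

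Further rises with a measured fold included miR-500 (log2 fold change 1.10, SE 0.10) and miR-151 (1.04, SE 0.11). The largest rises also took in miR-34a, a target of p53, which was at least 1.38-fold higher, and miR-130b, at least 1.07-fold higher. miR-146a, which NF-κB induces and which restrains inflammatory signalling, was at least 1.71-fold higher (adjusted p = 0.0021), from raw signals of 9.08, 10.8 and 11.1 to raw signals of 39.9, 44.3 and 65. miR-140 was at least 1.60-fold higher (adjusted p = 1.4e-05). miR-192, miR-224 and miR-532-5p passed as higher with no fold, since their day 9 means of 4.64, 4.81 and 5.28 were below the limit of day 2.

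**Figure D3:**
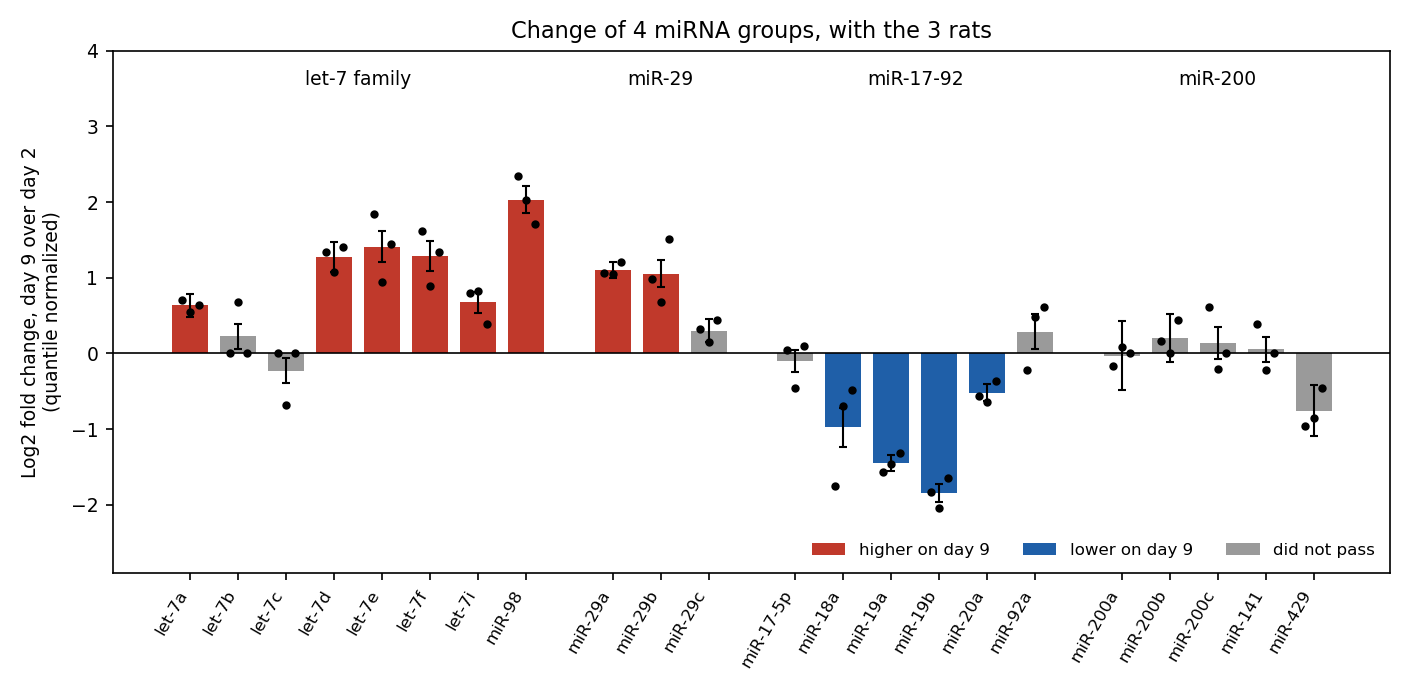
Log2 fold change, day 9 over day 2, of members of 4 miRNA groups after quantile normalization, with bars for the limma estimate, error bars for its SE and points for the 3 rats. 6 of 8 let-7 members and 2 of 3 miR-29 members are higher, 4 of 6 miR-17-92 members are lower and none of the 5 miR-200 members passed, whereas without normalization none of these miR-17-92 members is lower and 4 miR-200 members are higher. Of all miRNAs tested, 28.2% are higher and 17% lower after quantile normalization, and 49.5% and 6.38% without normalization.

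The miR-17-92 cluster, a polycistron that drives cell proliferation, lies on chromosome 15 (rn4 coordinates of the array design, 99853755 to 99854509, plus strand), and after quantile normalization 4 of its 6 detected miRNAs fell while none rose. With the 75th percentile over all miRNAs as the scale of an array, 3 fell and 2, miR-20a and miR-92a, rose, and without normalization none fell and the same 2 rose. Over all miRNAs tested, 17% fell and 28.2% rose after quantile normalization, and 6.38% and 49.5% without normalization. miR-19b had normalized log2 signals of 11.17 on all 3 day 2 arrays and of 9.33, 9.12 and 9.52 on day 9, a log2 fold change of -1.84 (SE 0.12, adjusted p = 1e-06). miR-19a fell by 1.45 (SE 0.10, adjusted p = 2.3e-06). miR-18a and miR-20a fell as well, by 0.98 (SE 0.26) and 0.52 (SE 0.11). The other 2, miR-92a and miR-17-5p, had log2 fold changes of 0.29 (SE 0.23) and -0.10 (SE 0.14) and did not pass. In raw signals miR-19b was 566, 673 and 596 on day 2 and 448, 658 and 655 on day 9, which overlap, and miR-20a rose from 447 to 530 up to 1007 to 1444.

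Since the scale of an array cancels in a ratio taken within it, raw ratios were set out for 13 pairs of miRNAs that share a hairpin, a transcript or a family. The pairs were chosen after the values had been seen. Probes differ in brightness, so only the change of a ratio is of use and not its level. The ratio of miR-125a-3p to miR-125a-5p was 17.5, 12.9 and 11.4 on the day 2 arrays and 1.04, 1.23 and 0.795 on the day 9 arrays. All 3 rats moved alike, and the mean log2 ratio went from 3.78 ± 0.32 to 0.01 ± 0.32 (SD, n = 3). The ratio of miR-19b to miR-92a was 2.09, 2.60 and 2.16 on day 2 and 0.710, 0.742 and 0.689 on day 9. The ratio of miR-20a to miR-17-5p was 22.8, 20.5 and 21.5 on day 2 and 31.2, 33.4 and 30.0 on day 9, so it rose although the normalized signal of miR-20a fell and that of miR-17-5p did not pass. The ratio of miR-27a to miR-23a, encoded within 1 kb of each other, was 1.05, 0.905 and 0.908 on day 2 and 0.459, 0.631 and 0.433 on day 9. The ratio of miR-107 to miR-103 was 1.02 to 1.15 on day 2 and 1.54 to 2.26 on day 9. Because of how the pairs were chosen, their count does not measure how often ratios change. Of all single miRNAs tested, 51.1% did not overlap between the days. In each of the 5 pairs above, and in 10 of the 13, the days did not overlap. For these pairs p was 0.1, the smallest possible (exact permutation test without pairing by rat, two-sided). By contrast, the log2 ratio of miR-29b to miR-29a was -3.95 ± 0.19 on day 2 and -4.08 ± 0.30 on day 9 (exact p = 0.6), and that of miR-99a to let-7c was -4.96 ± 0.16 and -4.91 ± 0.16 (exact p = 0.8).

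**Figure D4:**
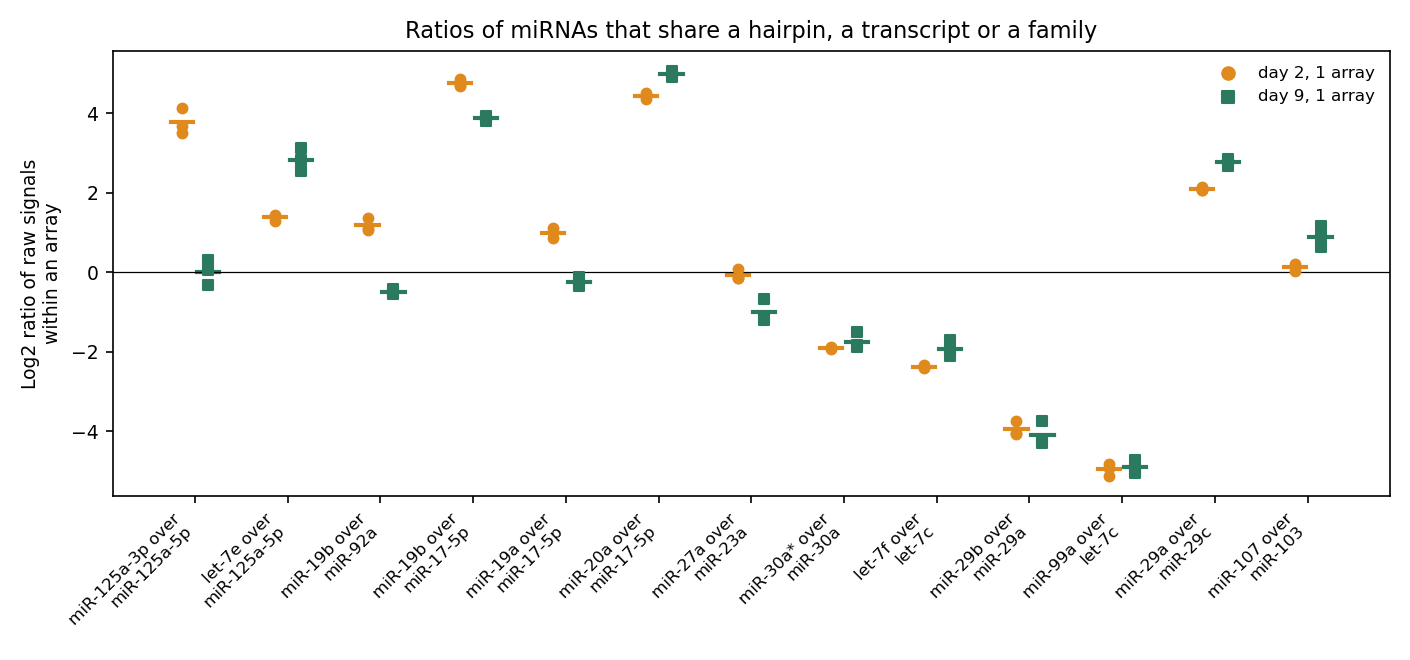
Log2 ratios of raw signals within each array for 13 pairs of miRNAs, with 1 point per array and a bar at the mean of 3 arrays of a day. The ratio of miR-125a-3p to miR-125a-5p moves from a mean of 3.78 on day 2 to 0.01 on day 9, while the ratios of miR-29b to miR-29a and of miR-99a to let-7c overlap between the days.

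miRNAs encoded next to each other thus moved in different directions at some places and together at others. On chromosome 1 (rn4, 56487021 to 56487653, plus strand) lie miR-99b*, let-7e, miR-125a-5p and miR-125a-3p, of which the first pair rose, miR-125a-5p did not pass and miR-125a-3p fell. On the same chromosome (64272983 to 64274961, minus strand) lie miR-290, which fell, and miR-291a-5p and miR-294, which rose. On chromosome X (27323162 to 27323577, plus strand) miR-188 fell and miR-532-5p rose. Members moved together on chromosome 17 (22119781 to 22121928, plus strand), where let-7a, let-7d and let-7f all rose, on chromosome 4 (58107816 to 58108211, minus strand), where miR-29a and miR-29b rose, and on chromosome 6 (134203581 to 134210263, plus strand), where miR-341 and miR-370 fell. A mature miRNA made at several places, such as let-7a, let-7f and miR-29b, cannot be traced to 1 of them.

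Both arms of a hairpin were detected for 14 pairs, of which 8 were paired by RefSeq names and 6 by the names on the array alone. Beside the arms of miR-125a and miR-125b described above, a wide gap was that of the hairpin of miR-30c-2, where miR-30c had a log2 fold change of 0.16 (SE 0.12, adjusted p = 0.31) and miR-30c-2* rose from the floor on every array. miR-30c is also made by a second hairpin, whose passenger strand miR-30c-1* was detected on 1 array of day 9. miR-30e* passed as higher and miR-30e as lower (adjusted p = 0.01 and 0.019), both with no fold, and miR-30e had a change of 0.66 without normalization. Both arms rose for miR-140 and miR-340. Of all passenger strands, named with an asterisk, 17 were tested, 8 rose and 1, miR-296*, fell, against 28.2% higher and 17% lower among all miRNAs tested. RefSeq names the sequence of miR-296* as miR-296-5p.

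The brightest miRNA of every array of both days was miR-1224, a mirtron. Its raw signals were 6954, 5398 and 6740 on day 2 and 47041, 42556 and 19169.5 on day 9, and it took 22.6 to 32.2% and 27.4 to 52.6% of the total signal. As the first in rank on all arrays it has a change of 0 after quantile normalization by construction. When each array was instead divided by the 75th percentile of those miRNAs that all 12 arrays detected, miR-1224 had a log2 fold change of 1.21 (adjusted p = 0.038), let-7b one of 1.02 (adjusted p = 0.00029), let-7c one of 0.60 (adjusted p = 0.0024) and miR-16 one of 0.45 (adjusted p = 0.0078). miR-200c and miR-16 completed the 5 brightest miRNAs of either day. miR-200c had normalized log2 signals of 11.33, 11.72 and 11.94 on day 2 and of 11.94, 11.52 and 11.94 on day 9, which overlap.

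The miR-200 family keeps cells epithelial by lowering Zeb1 and Zeb2. None of its 5 members passed after quantile normalization, against 4 that passed as higher without it, and their log2 fold changes ran from -0.75 for miR-429 to 0.20 for miR-200b. None of 3 members of the miR-183 cluster and none of miR-31, miR-203 and miR-205, which are also known from epithelium, passed either. Without normalization 2 of 3 in each of these groups passed as higher. Over all miRNAs tested, 28.2% passed as higher and 17% as lower after quantile normalization, and 49.5% and 6.38% without it. With 7 of 7 epithelial markers detected on at least 1 array, the summed raw signal of this list was 1838 to 2554 on day 2 and 5359 to 6957 on day 9. Markers of blood cells were few. miR-451, the main miRNA of red cells, was detected on 1 array of day 9 and miR-144 on none, and the lymphocyte miRNA miR-150, the endothelial miR-126, the liver miRNA miR-122 and the muscle miRNA miR-1 were detected on none of the 6 arrays. Of the other muscle miRNAs, miR-206 was also detected on none, but miR-133a was detected on all 3 day 2 arrays and miR-133b on 3 arrays of day 2 and 2 of day 9. The leukocyte miRNAs miR-223 and miR-142-3p summed to raw signals of 24.1 to 30.3 on day 2 and 34 to 79.2 on day 9. miR-223 did not pass (normalized log2 signal 6.11 ± 0.13 and 5.98 ± 0.59), and miR-142-3p passed as higher while detected on 1 array of day 9.

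The stromal miRNA miR-143 set 1 day 9 array apart. Its raw signals were 825, 690 and 1037 on day 2 and 2251, 4987 and 558 on day 9, the lowest being that of rat 3. The log2 fold change was -0.69 (SE 0.57, adjusted p = 0.38), and 0.14 without this array. The summed raw signal of the 4 stromal markers was 697 to 1043 on day 2 and 615 to 5008 on day 9, and miR-145 was detected on none of the 6 arrays.

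In the remaining lists the calls were mixed, and they stand beside 28.2% higher and 17% lower among all miRNAs tested, or 49.5% and 6.38% without normalization. In the miR-181 family, 2 of 4 tested fell and none rose, while without normalization none fell and 1 rose. In the miR-30 family, 2 of 5 fell and none rose, while without normalization none fell and 3 rose. In the clusters of miR-23, miR-27 and miR-24, miR-23b rose and miR-27a fell among 5, against 4 rises and no fall without normalization. miR-27a (log2 fold change -0.97, SE 0.12, adjusted p = 0.00011) differs at 1 of 21 bases from miR-27b, which had 0.01 (SE 0.13). In the families of miR-15b and miR-16 and of miR-103 and miR-107, 2 of 7 rose, and 4 without normalization. In the miR-10, miR-99, miR-100 and miR-125 families, 2 of 7 rose, and 5 without normalization. Of these 2, only miR-99a is among the 156, and no array of either day detected the other. In the miR-34 family 1 of 2 rose. In the miR-17-92 list with its paralogs, 1 of 11 rose and 4 fell, against 3 rises and no fall without normalization, and the 1 rise was that of miR-363, which no array of either day detected and which is not among the 156. Of the miRNAs made without Drosha, miR-320 rose, miR-877 and miR-484 fell and miR-1224 had 0. In the family of miR-148b and miR-152, 1 of 2 fell. Of 3 inflammation-induced miRNAs tested, miR-146a and miR-21 rose, and miR-21 (log2 fold change 0.43, SE 0.16, adjusted p = 0.045) no longer passed without either array of rats 1 and 2 or the day 2 array of rat 3, with adjusted p-values of 0.091 to 0.12. The muscle list had 1 fall among 4 tested, the liver and gut list 1 rise among 3, the stromal and vascular list 1 rise among 5, the leukocyte list 1 rise among 4, and the erythroid list no call on its 1 tested member. In the pair of miR-212 and miR-132, miR-212 was the 1 fall. The 4 lists that the study drew up were taken over with its results known and are no independent evidence of a direction. The list of immunity and development had 12 rises and 4 falls among 26 tested, and 19 and 1 without normalization. That of immunity had 10 and 8 among 45, with 9 of the 10 rises among the 156 miRNAs, and 27 and 3 without normalization. That of development had 2 and 2 among 9, and 5 and 1 without normalization, and the tissue-specific list 0 and 1 among 7 on both scales.

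The change went weakly with base composition. Over the 128 miRNAs with a sequence, the GC content of the mature miRNA had a Pearson correlation of -0.34 and a Spearman correlation of -0.23 with the log2 fold change. Over the 86 of them detected on all 6 arrays the Pearson correlation was -0.20. The points share 6 arrays and are not independent, and brightness itself was related to GC content (Pearson -0.21). Among the 36 miRNAs with the highest GC content (52.2 to 77.3%), 8 rose and 14 fell, with a median log2 fold change of -0.17. Among the 43 with the lowest (27.3 to 42.9%), 15 rose and 7 fell, with a median of 0.26, and the 49 between them had 17 rises, 5 falls and a median of 0.27. The median GC content was 53.5% for the miRNAs that fell, 45.5% for those that rose and 46.5% for those that did not pass. The Pearson correlation was -0.37, -0.27 and -0.32 in rats 1, 2 and 3, and the Spearman correlation was -0.25, -0.11 and -0.25. Its link to RNA recovery, labelling or hybridization was not tested.

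**Figure D5:**
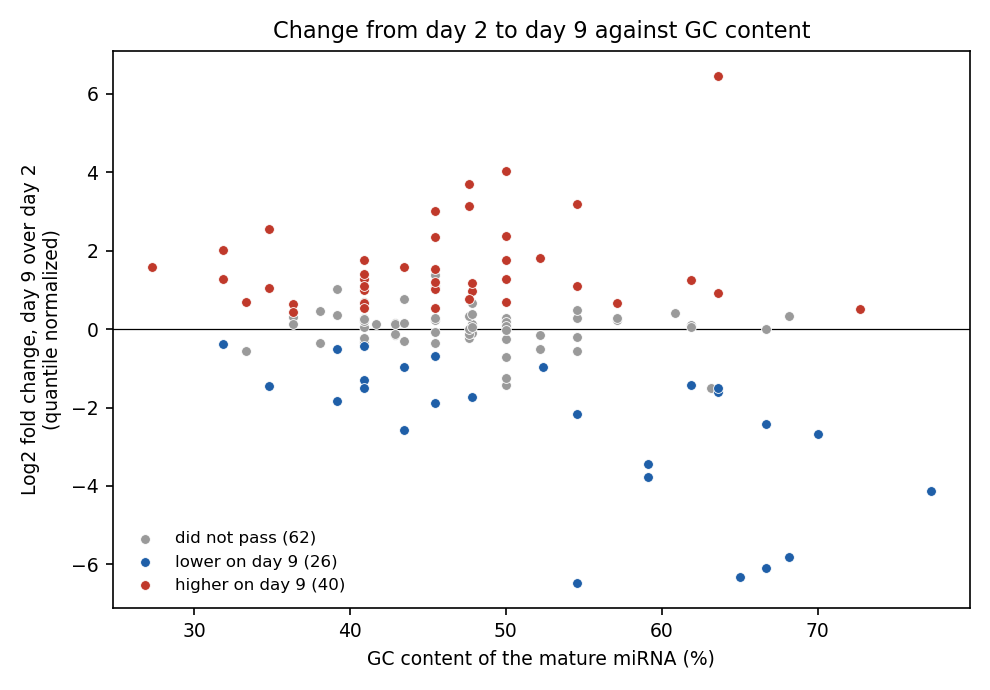
Log2 fold change, day 9 over day 2, after quantile normalization (vertical axis) against the GC content of the mature miRNA (horizontal axis) for the 128 miRNAs with a RefSeq sequence, coloured by the limma call. The 26 miRNAs that fell have a median GC content of 53.5% and the 40 that rose one of 45.5%.

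The array carries several probes for most miRNAs. A probe counted as usable if its signal was above 1 on all 6 arrays, so probes at the floor on any of them were left out. Among the 81 that passed, 39 had at least 2 usable probes, and in all 39 every such probe moved in the direction of the call. For miR-125a-3p 4 probes did so, and for miR-494, miR-296*, miR-19b, let-7e and miR-29a 2 each.

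On day 16, measured on the other slide and normalized with these arrays, 23 of the 24 largest changes had a mean nearer to that of day 9 than to that of day 2. The exception was miR-130b, with means of 2.47, 5.47 and 3.82 on days 2, 9 and 16. The 24 were chosen by the size of their change from day 2 to day 9 in the same normalized signals. How many of all miRNAs tested lay nearer to day 9 was not counted, so the count does not set the 24 apart from the rest. miR-212 had a mean normalized log2 signal of 10.91 on day 2, 4.45 on day 9 and 5.89 on day 16. For miR-125a-3p these means were 9.29, 5.85 and 6.02, and for miR-494 they were 11.46, 8.88 and 9.08. For miR-294 they were 4.37, 8.06 and 7.43, and for miR-99b* 0.47, 6.92 and 5.31.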

How the data were processed

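The authors labelled 70 ng of total RNA with 1 dye, hybridized it to rat miRNA arrays of 388 miRNAs and extracted the scans with Agilent Feature Extraction 9.5.3.1, named in the submitters' processing notes. The deposited files give a background-subtracted intensity per spot and a total intensity and detection call per miRNA, not normalized between arrays, and the deposited series value table repeats the intensity of the 8475 spots within 1%. The authors' quantile normalized log2 table names no sample in its 12 columns and was left out.

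Total intensities were quantile normalized over 12 arrays, as the authors' methods do, given a floor of 1 and put on the log2 scale. A model with a mean for each of the 4 groups was fitted with limma 3.58.1 (R 4.3.3) over the 188 miRNAs that any array of the series detected, and the contrast was day 9 minus day 2 (two-sided, Benjamini-Hochberg, threshold 0.05). The fit was tested on simulated data. Values at the floor do not vary, so their standard errors rest on the spread shared across miRNAs. Python 3.11.15 with numpy 2.4.6, pandas 2.3.3, scipy 1.17.1 and matplotlib made the tables and figures. No pair among the 66 of arrays was identical, the labels name separate rats, and the number of arrays limits the precision.

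The labels give the same 3 rats on both days. Deviations from the group means correlated by -0.0015 to 0.156 within a rat (median 0.125, 3 pairs) and by -0.146 to 0.0614 between rats (median -0.0813, 6 pairs), and the rat was a replicate block in an alternative.

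The miRNAs and lists were chosen with earlier results of these data known. Named miRNAs were the 12 largest rises and 12 largest falls that passed, were detected on all arrays of the brighter day and moved in 1 direction in every rat, the 5 brightest of each day, those detected on all arrays of 1 day only, up to 3 of each of 27 lists, and both arms of a hairpin. Other miRNAs named as members of a family, cluster or ratio were chosen after their values were seen. RefSeq sequences were matched by name, with the arm settled by the probes, and coordinates come from the scanner files, in rn4. Alternatives were other scalings, floors, background correction, filters, fits and tests, and leaving out each array. The mRNA arrays, qPCR and RNA concentrations were not analysed here.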

Additional observations from a re-analysis of the deposited data

How the results depend on the processing

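Over all 188 miRNAs tested, 53 were higher and 32 lower on day 9. Without normalization between arrays these counts were 93 and 12, and over only the 98 miRNAs detected on all 6 arrays they were 28 and 19, with fewer miRNAs tested. In the other alternatives both counts stayed within 1.5 times: leaving out 1 array gave 44 to 53 higher and 28 to 31 lower, the replicate block gave 51 and 34 (41 and 30 with only the 6 arrays fitted), scaling to the 75th percentile over all miRNAs 61 and 32, and the Tukey-Kramer test of the methods 41 and 26 after adjustment. Of 63 miRNAs that passed and were followed through the alternatives, 41 kept their call in every alternative that normalized the arrays. Leaving out 1 array ended the call of miR-15b whichever array it was, of miR-21 as given above, of miR-30d without any array but that of rat 1 on day 9, and of miR-363 without any but that of rat 2 on day 9. It also ended those of miR-214 without a day 2 array or the day 9 array of rat 3, of miR-760-3p without an array of rats 1 or 3, of miR-30e without the day 2 array of rat 2 or the day 9 array of rats 1 or 3, of miR-365 without the day 2 array of rat 1 or the day 9 array of rats 2 or 3, and of miR-181a* without the day 2 array of rat 3. Among those that passed on at least 1 of the scales compared, the sign turned as follows, and the cause was not tested. miR-20a had log2 fold changes of 0.14 and 0.35 with the 75th percentile over the miRNAs detected on all arrays and over all miRNAs, and 1.34 without normalization. let-7c had 0.60, 0.81 and 1.80, and miR-16 had 0.45, 0.66 and 1.65. Without normalization miR-27a had 0.12, miR-30d 0.51, miR-30e 0.66, miR-181c 0.21, miR-365 0.49, miR-23a 1.05 and miR-183 0.78, and miR-183 had 0.65 with normexp background correction. Requiring detection on all 3 arrays left 17 miRNAs found only on day 9. The ratio of total signals was 3.35 to 4.13 without 1 array and 3.00 without the brightest miRNA. The correlation with GC content was -0.20 over the 86 miRNAs detected on all 6 arrays. Signals under the background limit, 51 of the 81 calls on at least 1 day, allow a direction but at most a bound on the fold.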

Other observations

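The 3 day 9 arrays differed among themselves in a group of miRNAs, picked after their values were seen, for which the array of rat 3 lay apart from those of rats 1 and 2. On day 9, in rats 1, 2 and 3, the raw signals of miR-195 were 273, 556 and 116, those of miR-497 were 214, 460 and 118, and those of miR-130a were 235, 463 and 130. On day 2 the same miRNAs had 97.3, 92.4 and 126, 95.5, 87.4 and 127, and 94.1, 89 and 124. The stromal miRNA miR-143 described above had its lowest day 9 signal in the same rat, and so did miR-221, with raw signals of 67.3, 121 and 34.1, and miR-204, with 26.7, 58.1 and 14.2. miR-214 and miR-199a-3p, also known from stromal cells, ran the other way on day 9, with 9.45, 14.4 and 32.4 for miR-214 and 8.78, 10.8 and 30.2 for miR-199a-3p. The leukocyte miRNA miR-223 was also highest in rat 3, with 26, 50.6 and 71. None of these miRNAs but miR-214 passed between the days. The total signal of this array was the lowest of day 9, at 70019.5.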
